A study of Rattus norvegicus with 12 samples.

Results

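Claudins are the proteins that set what a tight junction lets through, and each stretch of the nephron carries its own set. The 10 genes of the family best known from the kidney were followed here in rat renal cortex. They were taken as every probe of the array whose RefSeq transcript maps to Cldn1, Cldn2, Cldn3, Cldn4, Cldn5, Cldn7, Cldn8, Cldn10, Cldn16 or Cldn19, which gave 19 probes of 10 genes out of 61657 non-control probes and 15284 named genes. Of the 19 probes, 3 read Cldn1, 3 read Cldn19, 2 each read Cldn2, Cldn3, Cldn4, Cldn8 and Cldn16, and 1 each read Cldn5, Cldn7 and Cldn10. Probes of 1 gene share their target and are not replicates of a condition.

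The arrays compared rats given bromodichloromethane (BDCM), which forms when drinking water is chlorinated and is toxic to rodent kidney and liver, with rats given corn oil. There were 4 groups of 3 animals: BDCM with CO2-O2 anaesthesia, corn oil with CO2-O2 anaesthesia, BDCM with isoflurane anaesthesia and corn oil with isoflurane anaesthesia. All animals were male Sprague-Dawley (Crl:CD(SD)) rats, bought at an age of 5 weeks, on a basal diet, and dosed for 4 weeks. BDCM was given at 200 mg/kg/day, and renal cortex was taken 24 h after the last dose from animals bled under the anaesthetic. Each anaesthetic belongs to an experiment of its own, so the 2 cannot be told apart.

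A claudin sits in the cell membrane and meets claudins of the next cell with its outer loops, which either form a pore for ions or seal the gap. In the proximal tubule Cldn2 forms a cation and water pore and isoform a of Cldn10 forms an anion pore. In the thick ascending limb isoform b of Cldn10 carries sodium, and Cldn16 and Cldn19 together serve calcium and magnesium uptake. Loss of either of that pair causes inherited magnesium wasting in people. Cldn3, Cldn4, Cldn7 and Cldn8 belong mainly to the distal nephron and collecting duct, where Cldn4 and Cldn8 work together in chloride passage in mouse collecting duct cells. Cldn1 marks the parietal epithelium of Bowman's capsule in the kidney and is also a claudin of hepatocytes, and Cldn5 is a claudin of endothelium.

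Promoter windows are shown for the gene with the largest rise among the 10, Cldn1, and for Cldn5 and Cldn10, which fell. Of the 10 genes, 8 had a window in the RefSeq table used here (assembly GRCr8, from 250 bases before to 50 bases after the annotated start, written 5′ to 3′ along the gene). Cldn2 and Cldn4 had none. The Cldn19 window (chr5:138148325-138148624, plus strand) lies wholly after the start of its gene at 138148234. The bases in capitals match CCGCCC or its reverse complement GGGCGG, the GC box that Sp and KLF factors bind.
Cldn1, chr11:87926126-87926425, plus strand: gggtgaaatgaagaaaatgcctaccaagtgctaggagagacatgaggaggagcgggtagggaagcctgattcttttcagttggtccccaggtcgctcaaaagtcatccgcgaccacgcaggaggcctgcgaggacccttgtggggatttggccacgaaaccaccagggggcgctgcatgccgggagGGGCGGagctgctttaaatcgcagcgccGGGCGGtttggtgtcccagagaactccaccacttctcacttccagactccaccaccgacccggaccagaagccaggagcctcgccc
Cldn5, chr11:95718549-95718848, minus strand: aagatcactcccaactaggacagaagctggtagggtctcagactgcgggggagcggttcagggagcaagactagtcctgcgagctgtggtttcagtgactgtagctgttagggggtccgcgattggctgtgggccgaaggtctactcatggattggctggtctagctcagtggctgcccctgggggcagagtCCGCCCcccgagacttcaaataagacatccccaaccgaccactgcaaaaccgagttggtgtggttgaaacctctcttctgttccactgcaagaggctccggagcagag
Cldn10, chr15:102269608-102269907, plus strand: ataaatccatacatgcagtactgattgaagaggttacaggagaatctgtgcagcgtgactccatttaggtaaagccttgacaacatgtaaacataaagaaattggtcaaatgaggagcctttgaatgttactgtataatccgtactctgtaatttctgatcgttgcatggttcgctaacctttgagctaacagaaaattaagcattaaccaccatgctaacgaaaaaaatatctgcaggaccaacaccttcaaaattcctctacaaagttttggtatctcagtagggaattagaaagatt

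With the start base counted as 0, the Cldn1 window held CCGCCC on the minus strand at -64 to -59 and at -36 to -31, and the Cldn5 window held it once on the plus strand at -58 to -53. The Cldn10 window held none. Over the 8 claudin windows, 5 held the motif, beside 33.1% of all 33469 promoters of the table. CAGGTG, the E-box that Snail and Zeb repressors bind, was found in the windows of Cldn3 and Cldn7 and in 18.8% of all promoters, and TGANTCA, the site of AP-1 factors, was found in none of the 8 and in 7.33% of all promoters. Each motif was searched on both strands, and the 3 motifs do not overlap one another in these windows. A match describes the letters of the window and nothing more. No peak, methylation or binding data bear on these windows.

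Each array read 41529 to 44714 of its probes (67.4 to 72.5%) well above background, and all 19 claudin probes were well above background on all 12 arrays, with 0 saturated spots. All 19 therefore passed the filter on dim probes, and 43275 probes were tested. Values below are log2 of the processed signal over the array's 75th percentile, so 0 is the level of the 75th percentile probe, and differences are on the log2 scale. Levels of different probes cannot be set against each other. Markers of proximal tubule, podocyte and endothelium were well above background on every array for 20 of 20, 10 of 10 and 13 of 13 genes measured. Liver transcripts were also present. Albumin (Alb) stood at 0.60, 1.19 and 1.49 in BDCM rats and at 0.79, 1.66 and -1.44 in oil rats with CO2-O2. With isoflurane it stood at -0.69, -5.79 and -8.07 in BDCM rats and at -6.28, -5.72 and -2.97 in oil rats, so that BDCM replicate 1 and oil replicate 3 stood apart from the other isoflurane animals. In each isoflurane group Alb was well above background on 1 of 3 arrays. The arrays lay on 5 slides. No slide held both experiments, 1 slide held 1 BDCM and 3 oil arrays of the CO2-O2 experiment, and 1 held 2 BDCM arrays and 1 oil array of the isoflurane experiment.

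Averaged over both experiments, Cldn1 rose more than 3-fold and Cldn4 by 1.76-fold to 1.92-fold under BDCM, while Cldn10 fell by 1.55-fold and Cldn5 by 1.49-fold. Cldn2, Cldn3, Cldn7, Cldn16 and Cldn19 did not pass the test on any of their probes. By the limma fit over all probes, 5 of the 19 claudin probes were higher in BDCM rats, beside 17.9% of all probes tested, and 3 of 19 were lower, beside 20.4%. The 5 higher probes were all those of Cldn1 and Cldn4, and the 3 lower ones were those of Cldn10 and Cldn5 and the brighter probe of Cldn8. Within experiments, 5 probes were higher and 0 lower with CO2-O2 (9.86% and 9.89% of all probes), and 5 were higher and 2 lower with isoflurane (13.1% and 12.7% of all probes). The median difference over the 19 probes was -0.13, and that over all probes was -0.04.

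**Figure D1:**
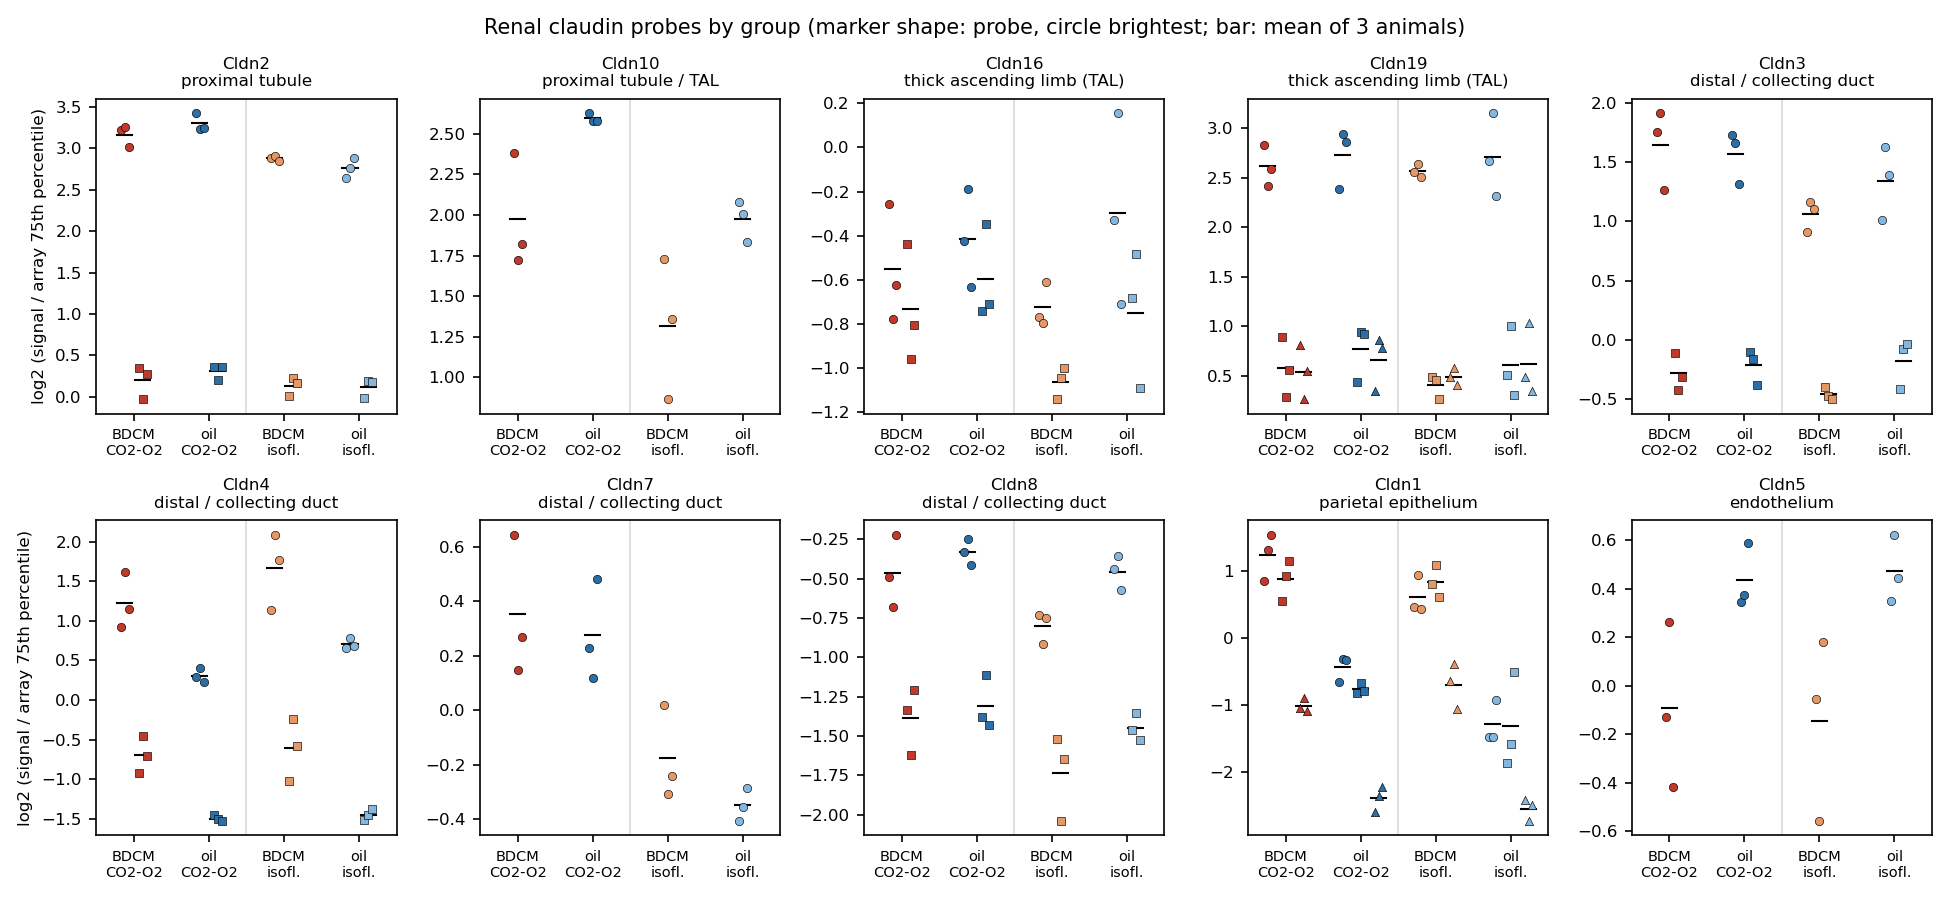
Normalized log2 signal (vertical axis, log2 of signal over the array's 75th percentile) of every claudin probe in each of the 12 animals, by group along the horizontal axis, with 1 panel per gene, 1 marker shape per probe and a bar at the mean of 3 animals. In the Cldn1 and Cldn4 panels every BDCM point of a probe lies above every oil point of that probe in the same experiment, and in the Cldn10 and Cldn5 panels every BDCM point lies below.

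Cldn2, the cation and water pore of the proximal tubule, did not pass the test, and its interval was the narrowest among the brightest probes of the 10 genes. Its brighter probe read 3.23, 3.26 and 3.01 in BDCM rats and 3.43, 3.23 and 3.25 in oil rats with CO2-O2. With isoflurane it read 2.89, 2.91 and 2.85 in BDCM rats and 2.64, 2.76 and 2.89 in oil rats. The groups overlapped in both experiments. The mean difference was -0.01 ± 0.07 (SE; adjusted p = 0.943), and its 95% interval ran from a ratio of 0.896 to one of 1.1. The dimmer probe differed by -0.05 ± 0.08 (adjusted p = 0.667), with an interval of 0.855 to 1.09.

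Cldn10 fell on its single probe, and which of its isoforms that probe reads was not tested. The probe read 2.38, 1.72 and 1.82 in BDCM rats and 2.63, 2.58 and 2.58 in oil rats with CO2-O2. In the isoflurane experiment it read 1.73, 0.87 and 1.36 in BDCM rats and 2.08, 2.01 and 1.83 in oil rats. Every BDCM animal lay below every oil animal of its experiment, and the BDCM rats differed more among themselves than the oil rats did. The mean of both differences was -0.64 ± 0.15 (SE; adjusted p = 0.00835), a fall of 1.55-fold with an interval of the ratio from 0.509 to 0.814. Taken alone, the difference was -0.62 with CO2-O2 (adjusted p = 0.0715) and -0.65 with isoflurane (adjusted p = 0.0486). On the slide shared by both treatments it was -0.87 with CO2-O2 and -0.53 with isoflurane, and with slide as a fixed block the mean was -0.70 (adjusted p = 0.0743).

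Most other genes of the proximal tubule on the list used here fell. Of 20 markers of the segment, 0 rose and 17 fell, with a median difference of -0.65, beside 19.4% of named genes higher and 20.9% lower and a median of -0.02. Slc5a2, the glucose transporter SGLT2 of the early segment, fell by 0.77 (adjusted p = 1.96e-05), and Dpep1, a brush-border dipeptidase, by 0.69 (adjusted p = 0.00032). Slc22a8, the organic anion transporter OAT3, fell by 0.82 (adjusted p = 0.000483), and Slc7a9, a subunit of the cystine transporter, by 0.40 (adjusted p = 0.000427). The summed signal of the list, in units of the 75th percentile, ran from 2145 to 2644 in BDCM rats and from 2889 to 3312 in oil rats with CO2-O2, and from 2080 to 2690 in BDCM rats and 3590 to 3764 in oil rats with isoflurane. In bulk cortex, fewer cells of a type and less RNA per cell cannot be told apart. The part of these shifts in the Cldn10 values was not tested. The difference of the brighter Cldn2 probe lay above that of each of the 20 markers, and whether Cldn2 differs from the list was not tested.

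The paired claudins of the thick ascending limb did not pass the test. The brighter Cldn16 probe read -0.26, -0.78 and -0.62 in BDCM rats and -0.42, -0.19 and -0.63 in oil rats with CO2-O2. Under isoflurane its values were -0.77, -0.79 and -0.61 in BDCM rats and -0.33, 0.16 and -0.71 in oil rats. The groups overlapped in both experiments, with the widest spread among the isoflurane controls. The mean difference was -0.28 ± 0.15 (SE; adjusted p = 0.165), with an interval of the ratio from 0.652 to 1.04, and the second probe gave -0.22 ± 0.13 (adjusted p = 0.195). Without oil isoflurane replicate 3, the brighter Cldn16 probe passed at an adjusted p of 0.0495.

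Cldn19, its partner, read 2.84, 2.42 and 2.59 in BDCM rats and 2.39, 2.94 and 2.87 in oil rats with CO2-O2 on the brightest probe. The values with isoflurane were 2.56, 2.64 and 2.51 in BDCM rats and 2.67, 3.15 and 2.31 in oil rats. The groups overlapped. The 3 probes differed by -0.13, -0.20 and -0.13, with adjusted p of 0.531, 0.33 and 0.516, and the interval of the brightest ran from a ratio of 0.727 to one of 1.15. In 2 of the 4 groups the extremes were shared: on all 5 probes of the pair, BDCM replicate 1 was the highest and BDCM replicate 2 the lowest of its group with CO2-O2, and oil replicate 2 was the highest and oil replicate 3 the lowest of its group with isoflurane. In the other two groups the order differed between probes. Among 13 other genes of the limb, 0 rose and 4 fell, with a median of -0.15, beside 19.4% of named genes higher and 20.9% lower. Those that fell were Ptger3, a prostaglandin E2 receptor, by 0.66 (adjusted p = 0.000416), Casr, the calcium-sensing receptor, by 0.43 (adjusted p = 0.00491), Egf, a growth factor made there, by 0.50 (adjusted p = 0.0116), and Irx1, a homeobox factor, by 0.46 (adjusted p = 0.0311). With slide as a fixed block the calls of Casr, Egf and Irx1 were lost (adjusted p = 0.128, 0.133 and 0.496), those of Egf and Irx1 also with scan day in its place (0.103 and 0.187), and the call of Irx1 held under 17 of 26 alternatives.

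Cldn4 rose on both probes and in both experiments. Its brighter probe read 0.93, 1.62 and 1.15 in BDCM rats and 0.30, 0.41 and 0.22 in oil rats with CO2-O2. With isoflurane it read 1.14, 2.09 and 1.76 in BDCM rats and 0.66, 0.78 and 0.69 in oil rats. No BDCM animal overlapped the oil animals of its experiment, and replicate 2 was the highest BDCM animal in both experiments. The mean difference was 0.94 ± 0.16 (SE; adjusted p = 0.00132), a ratio of 1.92 with an interval from 1.5 to 2.46.

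The second Cldn4 probe read -0.93, -0.45 and -0.71 in BDCM rats and -1.46, -1.51 and -1.52 in oil rats with CO2-O2, and -1.02, -0.24 and -0.58 in BDCM rats and -1.52, -1.45 and -1.37 in oil rats with isoflurane. The order of the BDCM animals was the same as on the first probe. Its mean difference was 0.82 ± 0.12 (SE; adjusted p = 0.000683), a ratio of 1.76 with an interval from 1.45 to 2.13. By experiment the 2 probes differed by 0.92 and 0.80 with CO2-O2 (adjusted p = 0.0191 and 0.0119) and by 0.96 and 0.83 with isoflurane (adjusted p = 0.0129 and 0.00736). Within the shared slides the differences were 1.31 and 1.04 with CO2-O2 and 0.93 and 0.74 with isoflurane. With slide as a fixed block, the mean calls held (adjusted p = 0.0169 and 0.019) and those of each experiment did not, the highest adjusted p being 0.152. The CO2-O2 call of the brighter Cldn4 probe was also lost without BDCM replicate 2, oil replicate 1 or oil replicate 3 of that experiment (adjusted p = 0.0631, 0.0538 and 0.0654).

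Cldn3, whose gene neighbours Cldn4 with no protein-coding gene between them in assembly GRCr8, did not pass. Its brighter probe read 1.75, 1.91 and 1.26 in BDCM rats and 1.73, 1.66 and 1.32 in oil rats with CO2-O2. In the isoflurane experiment it read 0.91, 1.16 and 1.1 in BDCM rats and 1.01, 1.62 and 1.39 in oil rats. The groups overlapped in both, and the 2 probes differed by -0.11 ± 0.14 (adjusted p = 0.583) and -0.18 ± 0.09 (adjusted p = 0.137). Cldn7, a claudin of the collecting duct whose loss in mice causes salt wasting, read 0.65, 0.15 and 0.27 in BDCM rats and 0.23, 0.12 and 0.48 in oil rats with CO2-O2. Under isoflurane its values were 0.02, -0.31 and -0.24 in BDCM rats and -0.41, -0.36 and -0.29 in oil rats. The groups overlapped, and the mean difference was 0.13 ± 0.10 (adjusted p = 0.363; interval of the ratio 0.932 to 1.28).

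Cldn8, which recruits Cldn4 to the junction in mouse collecting duct cells, fell a little on 1 of its 2 probes. The brighter probe read -0.49, -0.68 and -0.22 in BDCM rats and -0.33, -0.25 and -0.41 in oil rats with CO2-O2. The values with isoflurane were -0.73, -0.91 and -0.75 in BDCM rats and -0.44, -0.36 and -0.57 in oil rats. The groups overlapped with CO2-O2 and did not overlap with isoflurane. The mean difference was -0.24 ± 0.08 (SE; adjusted p = 0.0449), and the second probe gave -0.18 ± 0.11 (adjusted p = 0.207). The call of the Cldn8 probe held under 9 of 26 alternative settings, over which the adjusted p ran from 0.0108 to 0.115.

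Other genes of the same segments stand beside these claudins. Of all named genes 19.4% were higher and 20.9% lower. Of 9 genes of the distal convoluted and connecting tubule 0 rose and 6 fell (median -0.39), led by S100g, the small calcium-binding protein calbindin-D9k, at -1.81 (adjusted p = 0.000163), and Slc8a1, the sodium-calcium exchanger, at -0.75 (adjusted p = 0.000254). Of 12 principal cell genes 0 rose and 2 fell (median -0.14), namely Avpr2, the vasopressin receptor, at -0.50 (adjusted p = 0.00169), and Aqp3, a basolateral water channel, at -0.76 (adjusted p = 0.00226). Of 11 intercalated cell genes 2 rose and 5 fell (median -0.13): Aqp6 and Slc4a1, an anion exchanger, rose by 0.27 and 0.38 (adjusted p = 0.011 and 0.0159), and Slc26a4, the exchanger pendrin, was lowest at -1.06 (adjusted p = 0.000251). The calls of Aqp6 and Slc4a1 were lost with slide as a fixed block (adjusted p = 0.16 and 0.13) and with scan day in its place (0.082 and 0.0655), and that of Slc4a1 also with the replicate number as a block.

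Cldn1, the claudin of the parietal epithelium, had the largest change of the 10 genes, and all 3 probes showed it. The brightest read 0.86, 1.31 and 1.54 in BDCM rats and -0.66, -0.31 and -0.32 in oil rats with CO2-O2. With isoflurane it read 0.47, 0.95 and 0.44 in BDCM rats and -1.47, -1.47 and -0.92 in oil rats. Every BDCM animal lay above every oil animal, across experiments as well as within them. The mean difference was 1.78 ± 0.16 (SE; adjusted p = 1.46e-05), a ratio of 3.45 with an interval from 2.71 to 4.38.

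The second Cldn1 probe read 0.56, 0.93 and 1.15 in BDCM rats and -0.82, -0.66 and -0.79 in oil rats with CO2-O2, and 0.81, 1.09 and 0.62 in BDCM rats and -1.87, -1.57 and -0.50 in oil rats with isoflurane. The dimmest read -1.05, -0.89 and -1.09 in BDCM rats and -2.59, -2.36 and -2.22 in oil rats with CO2-O2, and -0.64, -0.38 and -1.05 in BDCM rats and -2.42, -2.72 and -2.49 in oil rats with isoflurane. On both, too, no BDCM animal overlapped any oil animal. Their mean differences were 1.90 ± 0.21 and 1.62 ± 0.12 (SE; adjusted p = 9.62e-05 and 4.42e-06), ratios of 3.72 and 3.07. By experiment the 3 Cldn1 probes rose by 1.67, 1.64 and 1.38 with CO2-O2 (adjusted p = 0.000672, 0.00495 and 0.000402) and by 1.90, 2.15 and 1.85 with isoflurane (adjusted p = 0.000191, 0.000722 and 3.89e-05). The CO2-O2 call of the second Cldn1 probe was lost when scan day entered as a block (adjusted p = 0.0541).

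On the shared slides the Cldn1 differences were 1.74, 1.68 and 1.5 with CO2-O2 and 1.62, 1.45 and 1.98 with isoflurane. Oil isoflurane replicate 3, the oil animal with the higher Alb in that group, also had the highest value of its group on the first 2 Cldn1 probes. Without it and BDCM isoflurane replicate 1, a setting chosen after seeing the data, the 3 probes differed by 1.91, 2.11 and 1.62 (adjusted p = 0.000102, 6.7e-05 and 0.000139). That setting keeps the CO2-O2 animals, each with more Alb than oil isoflurane replicate 3, so it is not a comparison free of liver transcripts. Over 15 liver transcripts 3 rose and 5 fell, with a median of 0.17, beside 19.4% of named genes higher and 20.9% lower. Their summed signal ran from 31.6 to 43.2 in BDCM rats and 44.1 to 52.4 in oil rats with CO2-O2. With isoflurane it ran from 19.4 to 24.2 in BDCM rats and 29.9 to 32.2 in oil rats. Cyp2c11, a male liver cytochrome, was lower by 4.68 (adjusted p = 0.000133), and Tf, transferrin, was higher by 1.00 (adjusted p = 0.00192). Beside the same shares of named genes, 6 of 14 genes known from injured tubules were higher, 2 lower and 6 not called. The higher ones were led by Havcr1, the injury molecule KIM-1, at 4.69 (adjusted p = 7.1e-05) and Spp1, osteopontin, at 3.28 (adjusted p = 7.8e-05). The 2 lower ones were Anxa1 at -0.25 (adjusted p = 0.0404) and Vim at -0.24 (adjusted p = 0.0417), calls that held under 15 and 11 of 26 alternatives. Podocyte genes, the other epithelium of the glomerulus, fell in 7 of 10 with 0 rising and a median of -0.39, beside 20.9% of named genes lower. The part of any of these in the Cldn1 values was not tested.

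Cldn5, a claudin of endothelium, fell. Its probe read -0.13, 0.26 and -0.42 in BDCM rats and 0.35, 0.38 and 0.59 in oil rats with CO2-O2. In the isoflurane experiment it read -0.06, -0.56 and 0.18 in BDCM rats and 0.35, 0.62 and 0.44 in oil rats. No BDCM animal overlapped the oil animals, and the BDCM animals were again the more scattered. The mean difference was -0.57 ± 0.14 (SE; adjusted p = 0.0108), a fall of 1.49-fold with an interval of the ratio from 0.538 to 0.841. Taken alone it was -0.53 with CO2-O2 (adjusted p = 0.0983) and -0.62 with isoflurane (adjusted p = 0.0499). Within the shared slides it was -0.17 with CO2-O2 and -0.75 with isoflurane, and with slide as a fixed block the Cldn5 mean was -0.46 (adjusted p = 0.0871).

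Of 13 other endothelial genes, 0 rose and 4 fell, with a median of -0.21, beside 19.4% of named genes higher and 20.9% lower. Those that fell were Tie1, a receptor kinase, at -0.60 (adjusted p = 0.000559), Plvap, of the fenestral diaphragm, at -0.34 (adjusted p = 0.00379), Tek, the angiopoietin receptor, at -0.52 (adjusted p = 0.016), and Emcn, endomucin, at -0.48 (adjusted p = 0.0167). With slide as a fixed block the calls of Plvap and Emcn were lost too (adjusted p = 0.0627 and 0.226), and that of Emcn with scan day in its place (0.0842). The summed endothelial signal ran from 65.9 to 78.6 in BDCM rats and 80.7 to 89.5 in oil rats with CO2-O2, and from 61.1 to 77.2 in BDCM rats and 83.3 to 88.9 in oil rats with isoflurane. The sum was lower in every BDCM animal than in every oil animal. The mean log2 of the same 13 genes separated the treatments within each experiment but not across them. It reached -0.0018 in BDCM rats with isoflurane and went down to -0.0075 in oil rats with CO2-O2. Podocyte genes, given above, fell in 7 of 10 with a median of -0.39. The part of the endothelial or podocyte signal in the Cldn5 values was not tested.

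**Figure D2:**
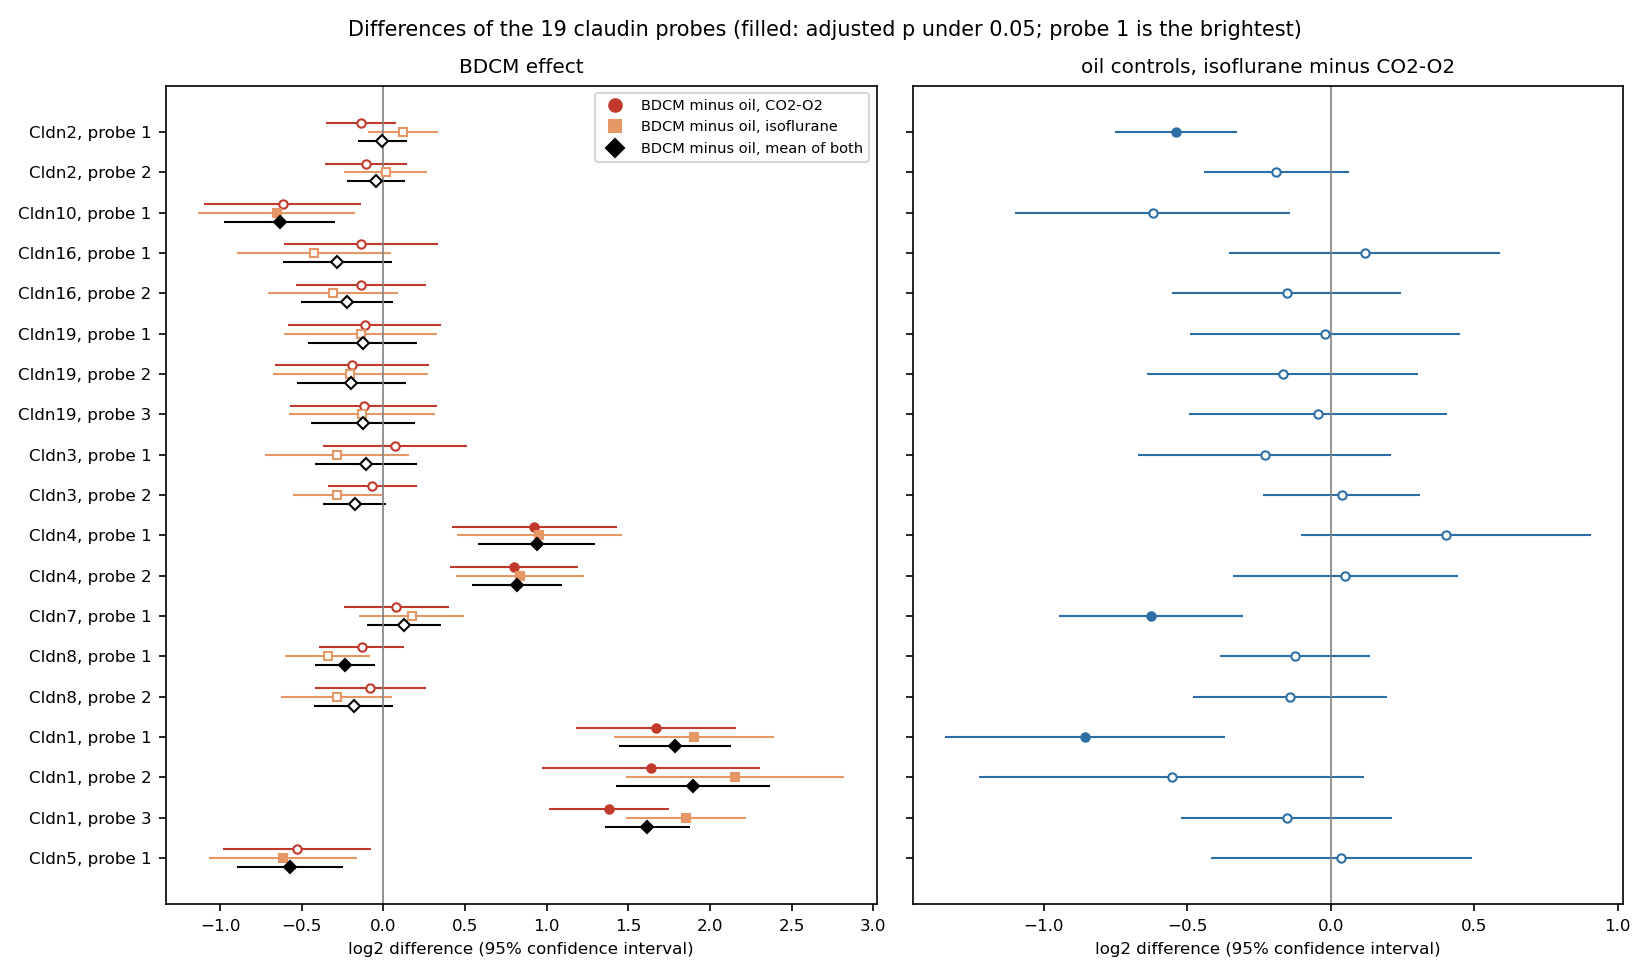
Log2 difference with its 95% confidence interval (horizontal axis) for each of the 19 claudin probes down the vertical axis, with BDCM minus oil at left (circles CO2-O2, squares isoflurane, diamonds their mean) and isoflurane minus CO2-O2 among oil controls at right, filled where the adjusted p was under 0.05. The Cldn1 and Cldn4 probes stand to the right of 0 in the left panel, Cldn10 and Cldn5 stand to the left of it at -0.64 and -0.57, and Cldn2 sits on 0.

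In both experiments 5 probes had every BDCM animal above every oil animal, beside 13.5% of all probes, and 2 probes had every BDCM animal below, beside 13% of all probes. These 7 probes are those of Cldn1, Cldn4, Cldn10 and Cldn5. No claudin passed the test of a difference between the 2 experiments' responses. Of the 19 probes 0 were called, 0 had an unadjusted p under 0.05, and the lowest adjusted p was 0.944. Over all probes 0% were called and 2125 had an unadjusted p under 0.05. Among these 19 probes the largest difference of effects was 0.51 ± 0.43 (SE), on the second Cldn1 probe. Among the further claudin genes on the array it was 2.57 ± 0.64 (SE; adjusted p = 0.944), on the dimmer Cldn6 probe. That probe was well above background on 1 of 3 arrays in BDCM rats with CO2-O2 and in oil rats with isoflurane. With 3 animals a group the intervals are wide, and for the brighter Cldn4 probe the ratio of the 2 effects could lie anywhere from 0.622 to 1.68. In each experiment BDCM replicate 2 had the highest Cldn4 and the lowest Cldn10 of its group, whereas for Cldn5 it was the highest BDCM animal with CO2-O2 and the lowest with isoflurane.

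Among the oil controls, 3 claudin probes were lower with isoflurane than with CO2-O2 and 0 were higher, beside 3.63% and 6.96% of all probes. The brighter Cldn2 probe averaged 2.76 ± 0.13 with isoflurane and 3.30 ± 0.11 with CO2-O2 (SD, n = 3 each), a difference of -0.54 ± 0.10 (SE; adjusted p = 0.00834). Cldn7 averaged -0.35 ± 0.06 with isoflurane and 0.28 ± 0.19 with CO2-O2, a difference of -0.63 ± 0.14 (adjusted p = 0.0235). The brightest Cldn1 probe averaged -1.29 ± 0.32 with isoflurane and -0.43 ± 0.20 with CO2-O2, a difference of -0.86 ± 0.22 (adjusted p = 0.035).

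The probes of a gene did not read this contrast alike. The dimmer Cldn2 probe differed by -0.19 (adjusted p = 0.326), and the other Cldn1 probes by -0.55 and -0.15 (adjusted p = 0.278 and 0.609). Without oil isoflurane replicate 3, the second Cldn1 probe passed at an adjusted p of 0.0248, while Cldn7 lost its call. Without oil CO2-O2 replicate 1 or 3, or oil isoflurane replicate 1 or 2, only the brighter Cldn2 probe of the 3 kept its call. Cldn10 differed by -0.62 (adjusted p = 0.0968), a size close to its BDCM difference. The anaesthetic, the experiment, the slides and the scan days run together in this contrast and cannot be told apart, and the summed liver signal moved with it, at 29.9 to 32.2 in isoflurane controls and 44.1 to 52.4 in CO2-O2 controls.

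The array carried 17 further genes with a claudin or claudin-domain name, read by 29 probes, of which 20 probes of 13 genes passed the filter. By 1 probe per gene, 0 rose and 3 fell under BDCM, beside 19.4% of named genes higher and 20.9% lower, and 1 of the 3, Cldn24, passed the filter only through its oil groups. Cldn22 and Cldn24, neighbouring genes with no gene between them in assembly GRCr8 and no settled role in the kidney, fell furthest. Cldn24 read -7.42, -5.60 and -5.86 in BDCM rats and -4.56, -3.92 and -3.85 in oil rats with CO2-O2. Under isoflurane its values were -5.32, -6.25 and -4.96 in BDCM rats and -3.52, -3.83 and -3.58 in oil rats. The groups did not overlap. Its signal is dim and was well above background on 2 of 3 arrays in each BDCM group, against 3 of 3 in each oil group. The fitted difference was -2.03 ± 0.33 (SE; adjusted p = 0.000932), and its size rests in part on BDCM arrays not well above background.

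The brighter Cldn22 probe read -5.95, -4.70 and -5.12 in BDCM rats and -4.36, -3.63 and -3.52 in oil rats with CO2-O2, and -4.90, -6.07 and -4.92 in BDCM rats and -3.52, -3.60 and -3.20 in oil rats with isoflurane. It too separated the groups, with 3 and 2 BDCM arrays well above background in the 2 experiments and 3 of 3 oil arrays in each. It differed by -1.64 ± 0.27 (SE; adjusted p = 0.0011). With normexp background correction the falls were smaller, -0.88 for Cldn24 and -0.79 for Cldn22, and both calls held. Whether the probes of these related genes also bind each other's transcript was not tested.

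Cldn12, a claudin of wide expression, fell by 0.28 on its brightest probe (SE 0.07; adjusted p = 0.00839), while its 2 dim probes differed by -0.01 and -0.03 (adjusted p = 0.98 and 0.841). Probes of Cldn23 disagreed: the bright one differed by 0.06 (adjusted p = 0.744) and the dim one by 1.75 ± 0.38 (adjusted p = 0.00528). On the dim probe the BDCM rats read -3.35, -1.80 and -2.02 with CO2-O2 and -3.73, -1.42 and -2.43 with isoflurane, and the oil rats -4.04, -4.29 and -4.58 with CO2-O2 and -3.90, -4.49 and -3.96 with isoflurane. The Cldn23 groups did not overlap on it, with replicate 1 the lowest BDCM animal in both experiments. Cldn14, the thick limb claudin that blocks the Cldn16 and Cldn19 pore, differed by 0.02 ± 0.10 (adjusted p = 0.871) on 1 probe. Its second probe differed by 1.79 ± 0.65 (adjusted p = 0.0528), was well above background on all BDCM arrays but on 2 and 1 of 3 oil arrays with CO2-O2 and isoflurane, and so entered the fit only through the BDCM groups.

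**Figure D3:**
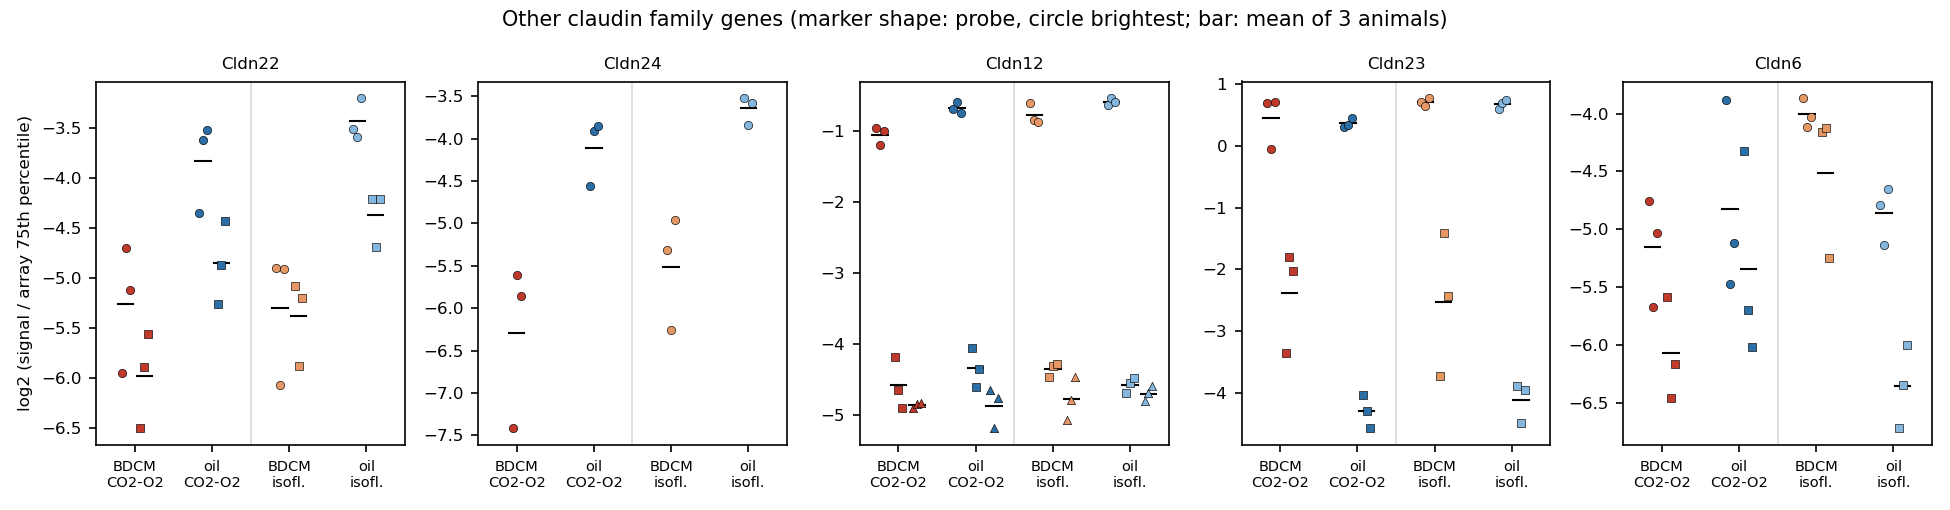
Normalized log2 signal (vertical axis, log2 of signal over the array's 75th percentile) of 5 further claudin genes in each of the 12 animals, by group along the horizontal axis, with 1 marker shape per probe and a bar at the mean of 3 animals. Cldn22 and Cldn24 lie lower in every BDCM animal than in every oil animal of the same experiment, and the dim and bright probes of Cldn23 do not move together.

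Other genes of the tight junction moved both ways. Of 28 other tight junction genes tested 8 rose and 4 fell, with a median of 0.05, beside 19.4% of named genes higher and 20.9% lower. Ybx3, the transcription factor that ZO-1 holds at the junction, rose by 0.92 ± 0.12 (SE; adjusted p = 0.000203), and Arhgef2, the exchange factor GEF-H1 of the junction, by 0.77 ± 0.17 (adjusted p = 0.00478). Lsr, the angulin that marks the corners where 3 cells meet, rose by 0.49 ± 0.08 (adjusted p = 0.000996), and Vasp, an actin filament factor, by 0.33 (adjusted p = 0.0105). Cgnl1, the junction protein paracingulin, fell by 1.01 ± 0.15 (adjusted p = 0.000643). Mpdz, a many-domain scaffold that binds claudin tails, fell by 0.47 (adjusted p = 0.00841), Pals1 of the Crumbs complex by 0.31 (adjusted p = 0.00415), and Magi1, another scaffold, by 0.16 (adjusted p = 0.0453), a call that held under 6 of 26 alternatives. With slide as a fixed block the calls of Arhgef2, Vasp and Magi1 were lost (adjusted p = 0.0553, 0.0679 and 0.105). The core scaffold ZO-1 (Tjp1) and occludin (Ocln), named here after their values were seen, differed by 0.04 (adjusted p = 0.72) and 0.20 (adjusted p = 0.111).

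Of 18 genes known to act on claudin transcription or on the paracellular path, 0 rose and 12 fell, with a median of -0.31, beside 20.9% of named genes lower. Prss8, the protease prostasin that acts on sodium channels and on claudins in cultured kidney cells, fell by 0.87 (adjusted p = 0.000169). Kl, the calcium and phosphate regulator Klotho, fell by 0.59 (adjusted p = 0.00107), and Egfr, whose signalling controls claudin levels in cultured tubule cells, by 0.62 (adjusted p = 0.0016). With slide as a fixed block the calls of Tfcp2l1, Casr, Wnk4, Cul3, Nr3c2, Vdr and Zeb2, also among the 12, were lost. Those of Wnk4 and Cul3 held under 14 and 17 of 26 alternatives. The list shares Kl and Casr with the segment lists above.

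**Figure D4:**
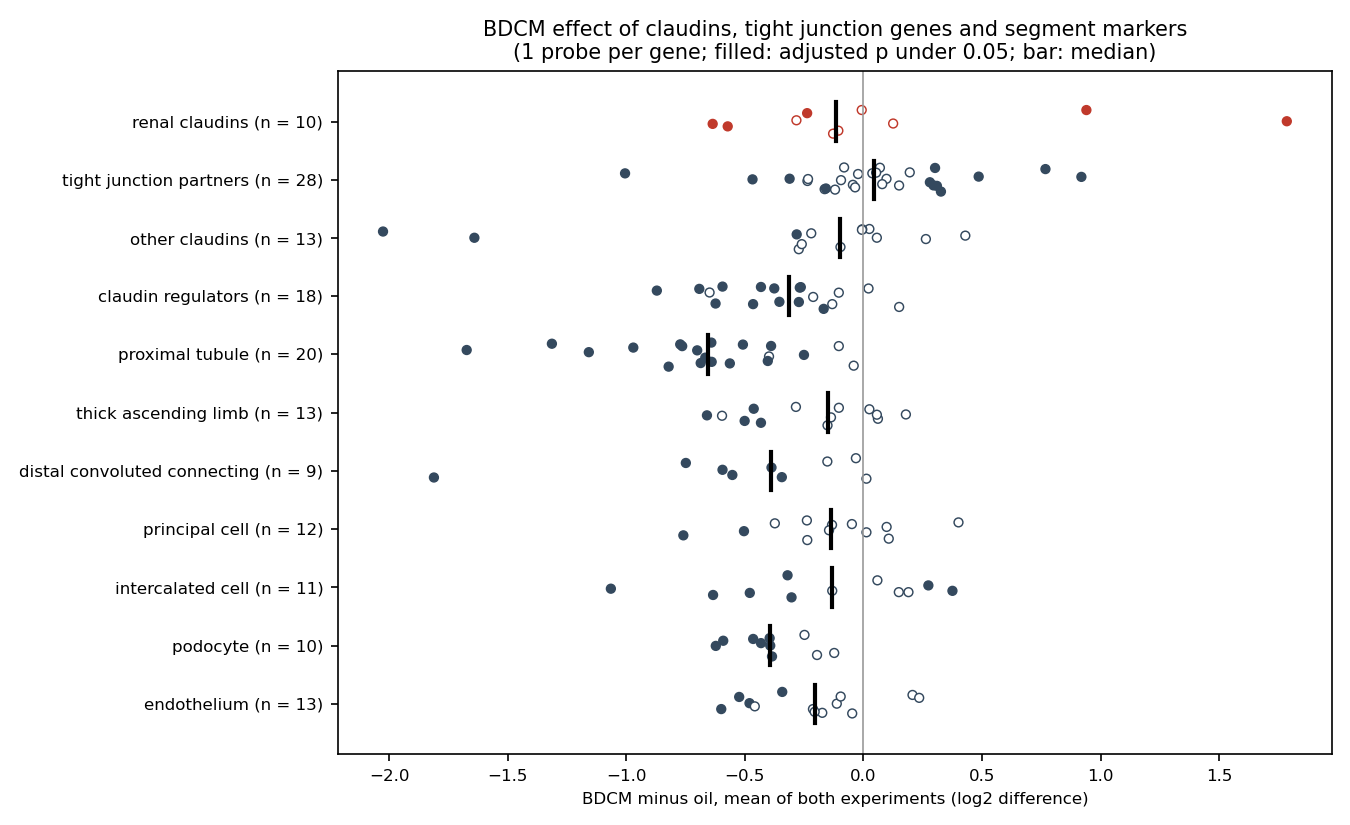
BDCM minus oil, the mean of both experiments as a log2 difference (horizontal axis), for 1 probe per gene in the claudins, the other tight junction and claudin genes and the segment and cell type lists down the vertical axis, with filled points at an adjusted p under 0.05 and a bar at each list's median. The 10 claudins run from -0.64 to 1.78 on both sides of 0, while the proximal tubule genes lie to its left around a median of -0.65.

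By the pattern over the 12 arrays, each gene centred on its own mean, the named genes nearest to the dimmest Cldn1 probe were Chchd6, Pemt and Abcc3. Chchd6 is a protein of the mitochondrial cristae, Pemt makes phosphatidylcholine and Abcc3 is an efflux pump. Their root mean square distances were 0.159, 0.19 and 0.193 on the log2 scale, and their mean differences were 1.59, 1.42 and 1.78. Nearest to Cldn10 were Gnai1, a G protein subunit, Etv5, an ETS factor, and Mat2a, which makes S-adenosylmethionine, at 0.148, 0.15 and 0.155, with mean differences of -0.46, -0.83 and -0.70. Arrays of 1 group share treatment and experiment, so the likeness is a description over 12 arrays in 4 groups.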

How the data were processed

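Renal cortex RNA of 12 rats was labelled with Cy3 and read on 12 Agilent arrays, 1 per animal. The deposited scanner files hold intensity values, which per the file headers were background-subtracted and detrended within each array by Agilent Feature Extraction (10.7.1.1 in the headers, 10.7 in the submitters' processing notes), and were not scaled across arrays. A second deposited source, used as an alternative, gives that signal as a linear ratio to the array's 75th percentile. For 6 CO2-O2 animals its column matched a scanner file carrying a different animal's name within the group, over 18889 probes, which leaves the groups as they are. Animals are numbered by their scanner files. Flags for signal well above background, saturation and outliers, another kind of value in the deposited files, were used as filters.

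Values are log2 of processed signal over the 75th percentile of its array. Accessions were named through RefSeq genes of assembly GRCr8 (27460 probes with 1 symbol, 34197 without), while the probes refer to build rn4, so no probe coordinates are given. Each probe was its own feature. Outlier spots were set to missing (115 values), 84 spike-in probes were left out, and probes entered if every array of at least 1 group read them well above background. Group means were fitted with limma 3.58.1 (R 4.3.3, data.table at 1.17.8), with adjusted p by Benjamini and Hochberg over 43275 probes and a threshold of 0.05. The effect of BDCM was taken as BDCM minus oil within an experiment, then averaged and differenced over both, and oil controls were compared as isoflurane minus CO2-O2. Intervals are at 95%. Counts over lists use 1 probe per gene, the one with the highest mean, over 12221 named genes. Named from each list are up to 4 genes per direction with the lowest adjusted p, of which 1 gene is not reported here. Precision is limited by having 3 arrays in a group. Plots used matplotlib 3.10.9 (Python 3.11.15).

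The claudins, the lists and the tests were chosen with earlier results of these data known. On simulated data (43204 features) the mean contrast recovered 62, 76, 92 and 100% of features changed 1.5, 2, 3 and 4-fold, and the contrast within CO2-O2 or isoflurane recovered 32 or 34% at 1.5-fold and 62 or 58% at 2-fold. Only a small part of the simulated features was changed, while 38.3% of probes were called for the mean in the data. The adjustment of p was therefore stricter in the simulation, and its recovery need not hold for the tests here. In all, 28 alternatives changed scaling, background correction, filter, probe choice, model, batch terms, source and animals. The setting without BDCM replicate 1 and oil replicate 3 of the isoflurane experiment, whose Alb was the highest of their groups, was chosen after seeing the data.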

Additional observations from a re-analysis of the deposited data

Results flagged for a closer look

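Among the 19 probes of the 10 claudins, to which this search was confined, only the brighter Cldn2 probe stood out by its pattern over animals. All 3 BDCM animals lay below the oil mean with CO2-O2 (3.23, 3.26 and 3.01, against an oil mean of 3.30), and all 3 lay above it with isoflurane (2.89, 2.91 and 2.85, against an oil mean of 2.76). The test of the difference itself gave 0.26 (isoflurane effect minus CO2-O2 effect, SE 0.14, adjusted p = 0.944), and neither effect passed alone (-0.14, adjusted p = 0.356, and 0.12, adjusted p = 0.39). Outside that search, the dimmer probes of Cldn6 and Cldn9 showed the same pattern. Their differences of effects were 2.57 and 0.96 (adjusted p = 0.944 for each). Groups of 3 animals are too small for a search for outlying samples.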

How the results depend on the processing

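The number of claudin probes called for the mean of both experiments was 8 of 19, and leaving out 1 animal at a time gave 7 to 9, while 32.9 to 38.4% of all probes were called. The same range was 4 to 7 for the 5 calls with CO2-O2 (11.2 to 22.6% of all probes), 5 to 8 for the 7 calls with isoflurane (15.8 to 26.5%), 0 to 0 for the difference of effects (0 to 0.00231%) and 1 to 4 for the 3 calls among oil controls (4.26 to 11.8%). With slide as a fixed block the counts were 5, 3 and 3 for the mean, CO2-O2 and isoflurane (24.0, 8.82 and 7.52% of all probes), and this fit rests on 1 BDCM animal with CO2-O2 and 1 oil animal with isoflurane. With 1 probe per gene they were 5, 2 and 4 of 10 genes, fewer because fewer probes are counted (38.1, 19.9 and 26.1% of all features). The calls of the 5 Cldn1 and Cldn4 probes for the mean held under every alternative in which they were tested. Those of Cldn10 and Cldn5 were lost only with slide as a fixed block, and their calls with isoflurane alone held under 11 and 9 of 27 alternatives. The bright Cldn23 probe, not called at 0.06, changed to -0.21 with scan day as a fixed block (adjusted p = 0.0427), and the cause was not tested.

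With the replicate number as a block, 7, 5, 5 and 0 claudin probes were called for the mean, CO2-O2, isoflurane and the difference (33, 13.5, 19.4 and 0% of all probes), and the calls of Cldn8 for the mean and of Cldn10 and Cldn5 with isoflurane were lost. Same-numbered animals deviated from their group means with correlations of -0.03 to 0.061, so the numbers do not pair the animals. The contrast of oil controls could not be fitted with slide, scan day or replicate number as a block. Normexp used median spot signals. Slides and scan days follow the experiments, and within each experiment they also follow treatment in part. With CO2-O2, BDCM replicates 1 and 3 lay on another slide and scan day than all oil arrays. With isoflurane, BDCM replicate 3 lay on a slide and scan day of its own. A single probe reads each of Cldn5, Cldn7 and Cldn10.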
